A study of Drosophila melanogaster with 2 samples.

Results

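The regions described here are Psq binding sites that lie between genes but close to one: peaks of tagged Psq whose summit was 501 to 5000 bp from the nearest transcription start site (TSS) of a protein-coding gene and inside no protein-coding gene. The authors kept 2999 peaks as reproducible over both replicates by the irreproducible discovery rate (IDR), and 216 of these, or 7.20%, met this rule (95% Wilson interval 6.33 to 8.18%). The other IDR peaks were 1587 promoter peaks within 500 bp of a coding TSS, 753 intragenic peaks at 501 to 5000 bp, and 443 distal peaks beyond 5000 bp. Within the IDR list, membership rests on position and not on peak strength.

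The data come from 1 group of 2 biological replicates, numbered 3 and 4 in the labels, in which binding was mapped by chromatin immunoprecipitation and sequencing. The material was whole Drosophila melanogaster embryos from 0 to 24 hours after laying, both sexes together, of a transgenic line that makes Psq with GFP at its C terminus. The tagged protein was precipitated with an antibody to GFP from chromatin sonicated to 200 to 800 bp. There was no second condition, and a control experiment that the labels name was not analysed here. Each peak therefore averages over all embryonic cell types and stages in the collection, and binding in fewer cells cannot be told apart from weaker binding in every cell. The labels do not say which promoter drives the transgene or how much flanking sequence it carries.

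Psq (Pipsqueak) is a nuclear protein with a BTB domain for protein contacts and a repeated DNA-binding motif, and it is known to bind GAGA-type repeats and to occur with GAGA factor and Polycomb group proteins. Sequence just outside the promoter in the compact fly genome often holds enhancers, the start sites of non-coding RNAs and Polycomb response elements. A site of this kind is listed below under the gene whose TSS is nearest, which need not be the gene it acts on.

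The sequences around the strongest sites show what tagged Psq was found on. Each window runs 100 bases to either side of the summit on the plus strand of the RefSeq dm6 assembly, and capitals mark the GAGA element core, GAGAG, or its reverse complement CTCTC. No window is printed from 1 chromosome arm, which carries among others the strong sites of Psc and CycB. The first set had the highest scores among the sites with a core on the remaining arms. These windows lie at chr3L:6743624-6743824 for dikar, chr2L:16533474-16533674 for CG5953, chr3L:6218708-6218908 for LanA, chr3R:16222416-16222616 for tara, chr4:497780-497980 for zfh2 and chrX:5900112-5900312 for Act5C.
dikar: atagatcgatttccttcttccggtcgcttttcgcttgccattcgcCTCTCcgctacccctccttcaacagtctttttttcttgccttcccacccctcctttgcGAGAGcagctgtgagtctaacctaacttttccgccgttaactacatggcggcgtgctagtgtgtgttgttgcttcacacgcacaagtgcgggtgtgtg
CG5953: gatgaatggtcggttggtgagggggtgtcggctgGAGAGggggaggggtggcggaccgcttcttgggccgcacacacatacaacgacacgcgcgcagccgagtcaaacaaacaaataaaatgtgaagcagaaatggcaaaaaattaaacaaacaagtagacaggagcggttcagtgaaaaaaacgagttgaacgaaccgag
LanA: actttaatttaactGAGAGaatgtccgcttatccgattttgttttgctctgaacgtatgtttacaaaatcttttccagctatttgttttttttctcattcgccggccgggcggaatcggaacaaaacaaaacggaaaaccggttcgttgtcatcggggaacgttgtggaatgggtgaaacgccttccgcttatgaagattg
tara: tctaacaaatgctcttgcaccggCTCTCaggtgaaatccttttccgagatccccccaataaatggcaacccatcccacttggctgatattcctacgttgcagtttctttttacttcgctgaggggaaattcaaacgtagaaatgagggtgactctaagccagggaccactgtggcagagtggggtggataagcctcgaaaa
zfh2: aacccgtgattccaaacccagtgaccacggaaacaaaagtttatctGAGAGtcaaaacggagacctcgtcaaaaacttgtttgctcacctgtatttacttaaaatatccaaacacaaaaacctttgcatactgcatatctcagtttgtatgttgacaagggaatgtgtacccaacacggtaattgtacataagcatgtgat
Act5C: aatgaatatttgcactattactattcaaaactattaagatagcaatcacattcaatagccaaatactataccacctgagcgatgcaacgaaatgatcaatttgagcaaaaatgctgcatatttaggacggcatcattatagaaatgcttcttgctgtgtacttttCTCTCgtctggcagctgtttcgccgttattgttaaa

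Few of these cores sat at the summit itself. In the dikar window 1 core was centred 5 bp to the right of the summit and the other 53 bp to its left. The single core was centred 64 bp to the left of the summit at CG5953, 84 bp to the left at LanA, 75 bp to the left at tara and 52 bp to the left at zfh2, and 67 bp to the right at Act5C. The next set had the highest scores among the sites of the same arms without any core in the window, at chr2L:14023974-14024174 for hll, chr3R:5113149-5113349 for CG43131, chr2L:2202308-2202508 for CG31668 and chr3R:21520271-21520471 for sp3.
hll: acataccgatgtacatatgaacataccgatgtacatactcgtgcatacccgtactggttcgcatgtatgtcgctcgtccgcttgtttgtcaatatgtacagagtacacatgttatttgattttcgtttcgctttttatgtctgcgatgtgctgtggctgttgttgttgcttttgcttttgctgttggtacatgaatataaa
CG43131: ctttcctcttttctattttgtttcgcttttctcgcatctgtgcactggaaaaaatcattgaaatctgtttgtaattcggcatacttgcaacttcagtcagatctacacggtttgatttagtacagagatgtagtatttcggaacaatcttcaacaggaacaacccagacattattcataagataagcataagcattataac
CG31668: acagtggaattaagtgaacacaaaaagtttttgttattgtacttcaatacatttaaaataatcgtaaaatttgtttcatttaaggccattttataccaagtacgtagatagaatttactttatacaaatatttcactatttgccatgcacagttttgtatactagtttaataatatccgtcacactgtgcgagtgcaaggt
sp3: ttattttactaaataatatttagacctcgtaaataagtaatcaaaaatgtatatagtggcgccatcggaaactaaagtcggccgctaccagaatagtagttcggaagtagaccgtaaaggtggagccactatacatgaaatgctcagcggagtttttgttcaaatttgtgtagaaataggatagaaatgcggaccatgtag

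A weaker site upstream of CG5953, at chr2L:16534225-16534425, is shown because its window held the most cores of any member on those arms. It had 8 cores, overlapping ones counted, and a GA run of 16 bases, and it was picked for that count after the values were seen.
CG5953 second site: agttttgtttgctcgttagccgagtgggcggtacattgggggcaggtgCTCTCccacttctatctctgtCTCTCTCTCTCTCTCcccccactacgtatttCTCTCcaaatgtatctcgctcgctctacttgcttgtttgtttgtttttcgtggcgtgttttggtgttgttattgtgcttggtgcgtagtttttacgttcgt

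Sites of this kind were weaker than promoter sites. The authors' peak score, whose unit belongs to the list it comes from, had a median of 98.9 in the 216 members (quartiles 82.3 and 145, range 72.6 to 784). The median was 113 at promoters, 109 at intragenic peaks of the same distance, 97.8 at distal peaks and 108 over all IDR peaks. Members took 5 of the 100 highest places and 90 of the upper 1499 ranks, so 41.7% of members stood there (35.3 to 48.3%), against 53.8% of promoter peaks. Every interval given with a share is a 95% Wilson interval, and these cover counting error only. With 1 group, no test was made.

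**Figure D1:**
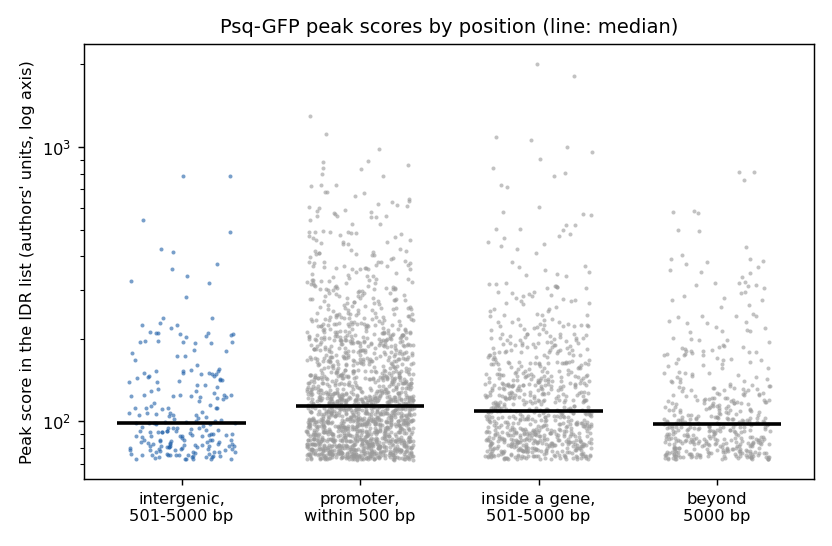
Score of every IDR peak on a log axis, by position class, with a black line at the median. The 216 intergenic members run between 72.6 and 784 with a median of 98.9, below the 113 of promoter peaks and next to the 97.8 of distal peaks.

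The same rule held for many more peaks of the relaxed list than passed IDR. Of 30000 peaks called on both replicates pooled, 3137 met the rule, and 216 of them were in the IDR list. That is 6.89% (6.05 to 7.83%), where 9.997% of all pooled peaks were IDR peaks. The share was 18.8% at promoters, 7.46% at intragenic peaks and 5.32% at distal peaks.

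All 216 members were overlapped by a peak in the list of each replicate alone. The IDR list was kept for agreement between these same 2 replicates. The overlaps and summit distances given here are therefore partly set by that choice and are no independent check. Among the 2999 strongest peaks of a replicate, replicate 3 overlapped 178 members (82.4%, 76.8 to 86.9%) and replicate 4 overlapped 186 (86.1%, 80.9 to 90.1%). Both did so for 151 members (69.9%), 27 were met in replicate 3 alone, 35 in replicate 4 alone, and 3 in neither. Over all IDR peaks the shares were 87.2% in replicate 3, 87.5% in replicate 4 and 75.7% in both. The 2 replicate summits of a member lay a median of 26 bp apart, and within 100 bp of each other for 199 members. As a description across sites of the same 2 libraries, the rank correlation of the replicate scores was 0.552 over 216 members and 0.659 over 2994 IDR peaks found in both.

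**Figure D2:**
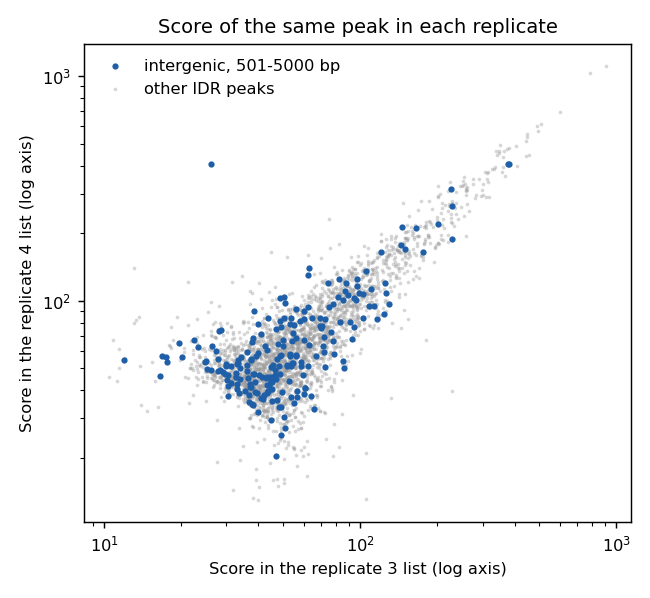
Score of each peak in the replicate 3 list against its score in the replicate 4 list, both on log axes, with the 216 members in blue and other IDR peaks in grey. Members above 100 in both lists follow 1 line, and the point far above it is the second dikar summit, at 26.2 and 406, which takes the replicate 4 peak of the stronger dikar site.

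The strongest members were also among the strong peaks of each replicate, whose scores are on a scale of their own. The site 560 bp upstream of dikar scored 379 in replicate 3, 406 in replicate 4 and 784 in the IDR list, where it ranked 23 of 2999. The site 4851 bp upstream of Psc, which encodes a Polycomb group subunit of the PRC1 complex, scored 378 in replicate 3, 404 in replicate 4 and 781 in the IDR list. Next came the site 2927 bp upstream of hll, with 225 in replicate 3, 316 in replicate 4 and 542 in the IDR list. In each of these the 2 replicate summits fell within 36 bp.

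CG5953 had a site at 697 bp upstream with 228 in replicate 3, 265 in replicate 4 and 490 in the IDR list. The site 4071 bp upstream of CG43131 scored 201 in replicate 3, 219 in replicate 4 and 423 in the IDR list. Psc had another site, 4162 bp upstream, with 228 in replicate 3, 188 in replicate 4 and 414 in the IDR list.

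CycB, which encodes the mitotic Cyclin B, had a site 3337 bp beyond its start on the downstream side, outside the gene, with 164 in replicate 3, 212 in replicate 4 and 374 in the IDR list. LanA encodes an alpha chain of laminin, a protein of basement membranes. Its site lay 786 bp upstream and scored 145 in replicate 3, 213 in replicate 4 and 358 in the IDR list. The CG31668 site lay 3758 bp from the start on the downstream side and scored 176 in replicate 3, 165 in replicate 4 and 339 in the IDR list. The other strong sites were upstream of tara at 3135 bp (324), sp3 at 557 bp (319) and Pomp, a proteasome assembly factor, at 4388 bp (285), each with its IDR score in brackets. tara encodes a SERTA-domain regulator.

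Below these, the sites with the next highest IDR scores reached from 238 down to 206. They included the sites of Amun (238) and jp, which encodes junctophilin (228). The segmentation gene slp2, a forkhead factor, had its site 4325 bp upstream (224). Scores were 224 at CG10479, 220 at CG3149, 211 at DNAlig3, which encodes a DNA ligase, 211 at CG43389 and 210 at CG14762. slbo, the C/EBP factor of border cell migration, had a site with 209, and CG5550 and CG10337 had 208 each. foxo, the forkhead factor restrained by insulin signalling, had sites with 206 at 3404 bp and 142 at 4520 bp upstream.

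Members thinned out with distance from the TSS. The sequence that meets the rule covers 14.2 Mb, 10.6% of the chromosome arms, and held 15.3 members per Mb, against 22.4 IDR peaks per Mb over the arms. There were 59 members at 501 to 1000 bp, or 26.0 per Mb, 71 over 1000 and up to 2000 bp, or 19.0 per Mb, and 86 over 2000 and up to 5000 bp, or 10.6 per Mb. Their scores did not follow the distance: the medians of the 3 bins were 99.9, 99.6 and 97.0. By chromosome arm the density was 16.6 members per Mb on 2L, 18.6 on 2R, 17.9 on 3L, 11.5 on 3R and 11.8 on X, and chromosome 4 held 2 members.

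Members lay mainly upstream, and between genes that point away from each other. Of the members, 174 were upstream of their nearest start (80.6%, 74.8 to 85.3%), where 69.5% of the eligible sequence is upstream. Between 2 divergent coding genes lay 110 members (50.9%, 44.3 to 57.5%), although such gaps make up 31.1% of the eligible sequence. That came to 25.02 members per Mb in divergent gaps, 11.7 in convergent gaps with 27 members, and 10.6 in tandem gaps with 79 members. Sequence close to a start is more often upstream by construction, and 57 of the 59 members within 1000 bp were upstream. The densities by orientation were not matched for distance or side, and the part of each was not tested.

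**Figure D3:**
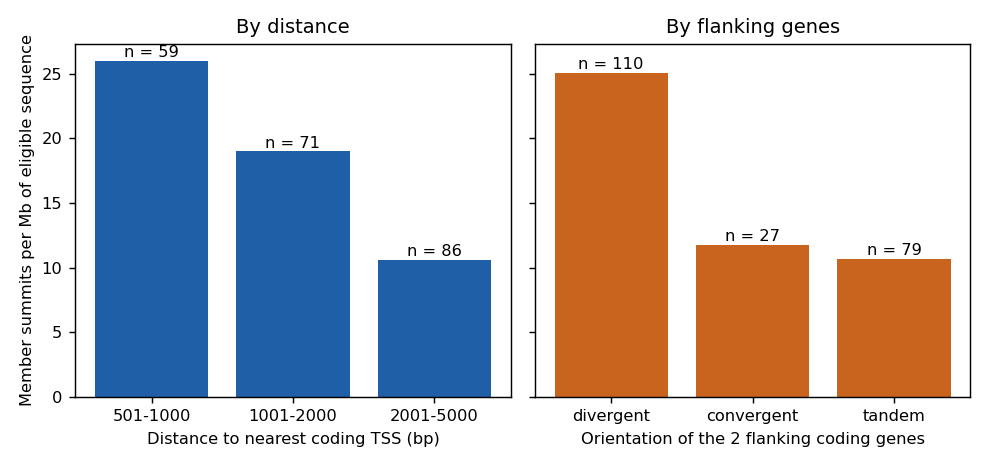
Members per Mb of sequence that meets the rule, by distance to the nearest coding TSS (left) and by the orientation of the flanking coding genes (right), with the number of members above each bar. Density falls over the distance bins to 10.6 per Mb, and divergent gaps, at 25.02 per Mb, stand above convergent and tandem gaps.

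Some members lay close to the annotated starts of non-coding genes. The rule uses coding genes only, and 33 members (15.3%, 11.1 to 20.7%) were within 500 bp of the TSS of a non-coding gene, 32 of class ncRNA and 1 of class snoRNA. This sequence is 6.33% of the eligible sequence, and its density was 36.8 members per Mb. The summit of 25 members (11.6%) was inside a non-coding gene. One or the other held for 44 members (20.4%, 15.5 to 26.2%), whose median score was 101, against 98.3 for the remaining 172. The hll site was 25 bp from the start of lncRNA:CR31840, the Psc sites were 211 and 478 bp from that of lncRNA:CR44339, and the slbo site was 154 bp from that of lncRNA:CR44810. The sites of CG5550 and CG43389 were 300 bp from the start of lncRNA:CR44380 and 330 bp from that of lncRNA:CR43626. Annotated transposable elements make up 6.08% of the eligible sequence and held 1 member. The labels and files do not say how reads that map to several places were treated.

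The 216 members had 179 nearest genes, 1.28% of the 13945 protein-coding genes, and 6548 coding genes had any eligible sequence nearest to them. There was 1 member at 146 genes, 2 at 29 genes and 3 at each of CG5953, tara, Act5C, which encodes a cytoplasmic actin, and Rh5, which encodes a rhodopsin. For 53 members (24.5%, 19.3 to 30.7%) the nearest gene also had a promoter summit. Of all coding genes, 14.1% had one. The first share counts members, so that a gene with several members counts more than once, and the second counts genes. The 2 shares are thus not of like units. Psc, tara, dikar and Act5C were among the nearest genes with a promoter summit, while hll, CG5953, CG43131, CycB and LanA had none. Another IDR summit lay within 1000 bp of 62 members (28.7%, 23.1 to 35.1%) and of 22.7% of all IDR peaks. Of the members, 13 were within 440 bp of a higher summit, so that they may describe the same site.

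Most members were the only member in their gap between genes, with IDR summits of other classes not counted. The 168 intergenic gaps with a member had 1 in 133 cases, 2 in 27, 3 in 4, 4 in 3 and 5 in 1. The gap of 20400 bp between mtSSB and tara, which point away from each other, held 5 members at both ends. On the tara side they scored 143, 324 and 238 at 3808, 3135 and 1134 bp from its start. On the side of mtSSB, which encodes the mitochondrial single-stranded DNA-binding protein, they scored 146 and 94.5 at 3079 and 2080 bp. No IDR summit lay in the middle of this gap.

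In the gap of 12902 bp between Psc and CG33798 the 4 members scored 414, 781, 196 and 88.3. The first pair was nearer to Psc and the second pair nearer to CG33798, at 2916 and 1944 bp. The gap of 5808 bp between COX7AL2 and CG31668 held members with 133, 79.1, 339 and 88.4. Between Hacd1 and Rh5, 5886 bp apart, the scores were 76.3, 153, 127 and 75.3. The gaps by tara, Psc and CG31668 each had a single leading summit, and the gap by Rh5 had 2 neighbouring summits of like height, 207 bp apart.

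**Figure D4:**
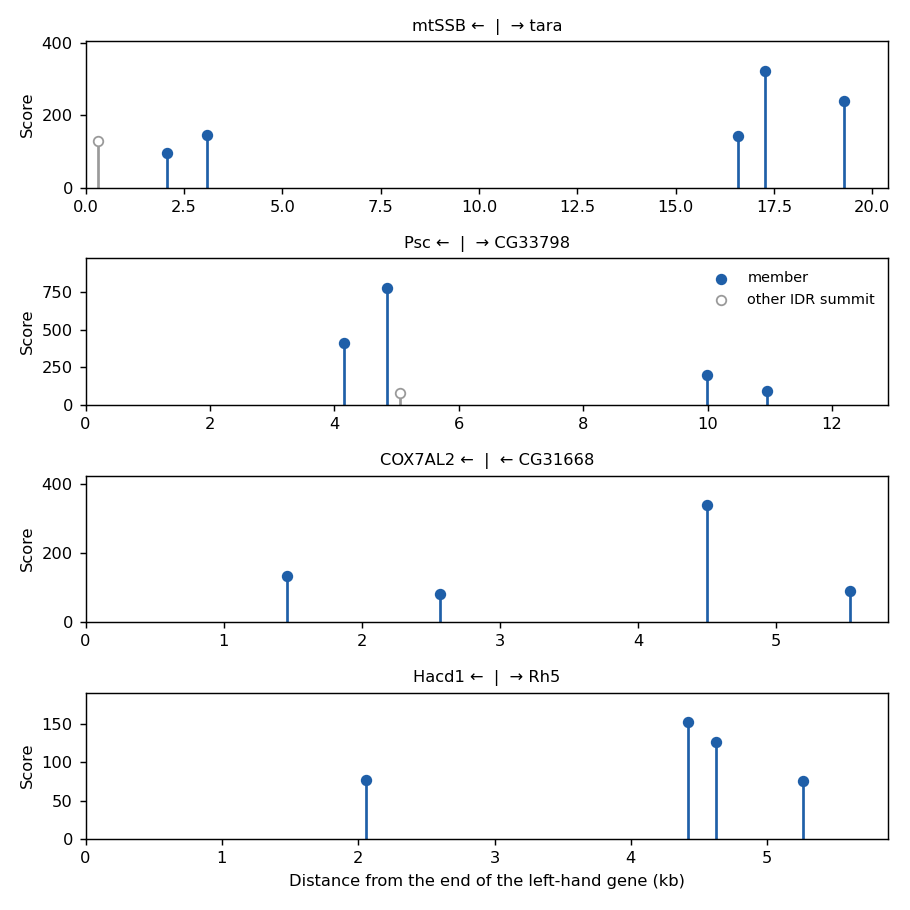
IDR summits in the 4 gaps with 4 or more members, drawn by distance in kb from the end of the left-hand gene (x) and by score (y), with arrows for gene direction. Filled points are members and open points other IDR summits. In the mtSSB and tara gap the summits stand at both ends.

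Genes were grouped by 22 lists of pathways and factor families, and 23 of their 379 matched genes were nearest to a member. The sequence nearest to list genes held 51.2 members per Mb, with 31 members in 0.606 Mb, against 15.3 for all coding genes. The lists were chosen with earlier results of these data known, so that these counts describe the lists and test nothing.

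The list with the most genes was that of BTB transcription factors, the family of Psq itself: 6 of 18 genes (33.3%, 16.3 to 56.3%), where 1.28% of all coding genes are nearest to a member. They had 8 members in 0.0399 Mb of eligible sequence. rib, which acts in tube formation, had a site 3883 bp upstream with 62.3 in replicate 3, 130 in replicate 4 and 193 in the IDR list. chinmo, a temporal factor of neurons, had sites with 139 and 92.0, upstream by 1738 and 2500 bp. psq had sites with 91.2 and 84.2, upstream by 2473 and 1628 bp, and lola, an axon guidance factor, had 1 with 81.6 at 1419 bp.

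bab2, which patterns legs and ovary, had a site with 82.9 at 980 bp upstream, and ab, which shapes dendrites, had 1 with 74.7 at 1616 bp. Of the 8 sites only those of rib and the stronger chinmo site were above the IDR median of 108. The 3 sites of lola and psq lie in the same divergent gap of 14596 bp, whose strongest summit, with 380, is at the psq promoter and is no member. The transgene carries psq, and its part in the peaks of this gap was not tested.

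Polycomb group genes had 2 of 18 nearest to a member. These were Psc, described above, and ph-d, another PRC1 subunit. The ph-d sites were 760 and 969 bp upstream and scored 145 and 91.7 in the IDR list. The weaker one scored 11.95 in replicate 3 and 54.6 in replicate 4. The list named for trithorax and Brahma genes had 2 of 22. These were psq and bab2 again, which are BTB factors and stand here only by the list's own grouping.

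Genes of the cell cycle had 2 of 21: CycB, with a second site of 84.3 at 227 bp from the first, and Cdk4, a cyclin-dependent kinase, with 74.1 at 628 bp upstream. Genes of tissue growth had 2 of 12, which were ds, an atypical cadherin of planar polarity, with 131 at 585 bp, and ex, a Hippo pathway component, with 85.3 at 1069 bp. The sites of fz, a receptor of Wnt and planar polarity signalling, scored 161 and 93.9 at 1750 and 1549 bp upstream and are 201 bp apart. aop, an ETS repressor of EGFR signalling, had a site with 107 at 1523 bp.

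Developmental regulators gave 1 gene a list. bin, a forkhead factor of visceral mesoderm, had a site with 150 at 1256 bp upstream. dac, a nuclear factor of eye and leg, had sites with 99.9 and 73.1 at 582 and 791 bp. D, a Sox factor of segmentation and neural fate, had 94.8 at 3126 bp on the downstream side. ovo, a zinc finger factor of the germ line, had 83.4 at 1526 bp upstream. Single sites also lay by stv, a cochaperone gene, with 124, by PGRP-SA, which encodes a bacterial sensor, with 98.9, and by sm, which encodes an RNA-binding protein, with 88.9.

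No gene of 6 lists was nearest to a member: the Notch pathway (0 of 20 genes), Hedgehog and BMP pathways (0 of 18), ecdysone response (0 of 14), homeotic genes (0 of 10), insulator and promoter-element factors (0 of 15) and the circadian clock (0 of 9). The interval for the Notch list reached up to 16.1%, so that these counts do not set the lists apart from the 1.28% of all genes. Of the Notch genes, 11 (55%) had a promoter summit, where 14.1% of all coding genes had one. That share was 50% in the Polycomb group, ecdysone response and RNA-binding regulator lists. It was lowest in the homeotic list (10%), the neural fate list (8.33%) and the eye and appendage list (6.67%). E(spl)malpha-BFM and E(spl)m2-BFM, which are Notch response genes but not in the list, were each nearest to a member, with scores of 139 at 1781 bp and 91.8 at 556 bp upstream. They were named after the values were seen.

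The GAGA core was a minority feature of the member summits. Within 100 bp of the summit it was found on either strand in 62 of 216 members (28.7%, 23.1 to 35.1%). The share was 29.2% at promoter peaks, 40.2% at intragenic peaks and 37.2% at distal peaks. It was 20.3% at the 2921 pooled peaks that met the rule but were not IDR peaks, and 19.9% in all 64850 eligible windows of 201 bp. In windows centred 1000 bp to the left and right of the member summits it was 22.7% and 24.1%. The share was 28.7% both in the 108 members with the higher scores and in the 108 with the lower.

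Long repeats were rare. The motif GAGAGAG, each match of which also holds GAGAG, was in 13 members (6.02%), in 9.92% of other IDR peaks and in 2.17% of eligible windows. GAGAGAGAG was in 4 members. No core was found in 154 windows, 1 in 43, and 2 or more in 19. A run of at least 10 alternating G and A bases was in 4 members, or 1.85%, and in 0.524% of eligible windows. The longest, of 17 bases, was at the psq site 2473 bp upstream, whose window held 9 cores, overlapping ones counted, and whose IDR score was 91.2. Among the 7 windows with 5 or more cores, that of the strongest Psc site, with 8, had a score of 781. The other 6 scored 125 or less. They included the psq site, the weaker CG5953 site printed above, with 8 cores and a score of 102, and a site of dve, which had 12 cores, the most of any member, and a score of 82.4. dve was named for that count.

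Core matches, overlapping ones counted, were more frequent beside the summit than at it. A window with a long repeat thus counts several times. Members had 0.296 and 0.278 matches per summit in the 100 bp to the left and right of it, and 0.356 and 0.398 in the next 100 bp on each side. Other IDR peaks had 0.393 and 0.388 in the inner bins and 0.457 and 0.446 in the next. Pooled peaks that met the rule but not IDR had 0.156 to 0.189 in every bin out to 500 bp. More than 100 and up to 300 bp from the summit, 105 members (48.6%, 42.0 to 55.2%) held a core, against 37.3% of those pooled peaks. This span is wider than the 201 bp around the summit. Its share therefore cannot be set beside the 28.7% of members with a core within 100 bp. Within 250 bp the shares were 60.6% of members, 61.5% of other IDR peaks, 43.7% of those pooled peaks and 42.4% of eligible windows of 501 bp.

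**Figure D5:**
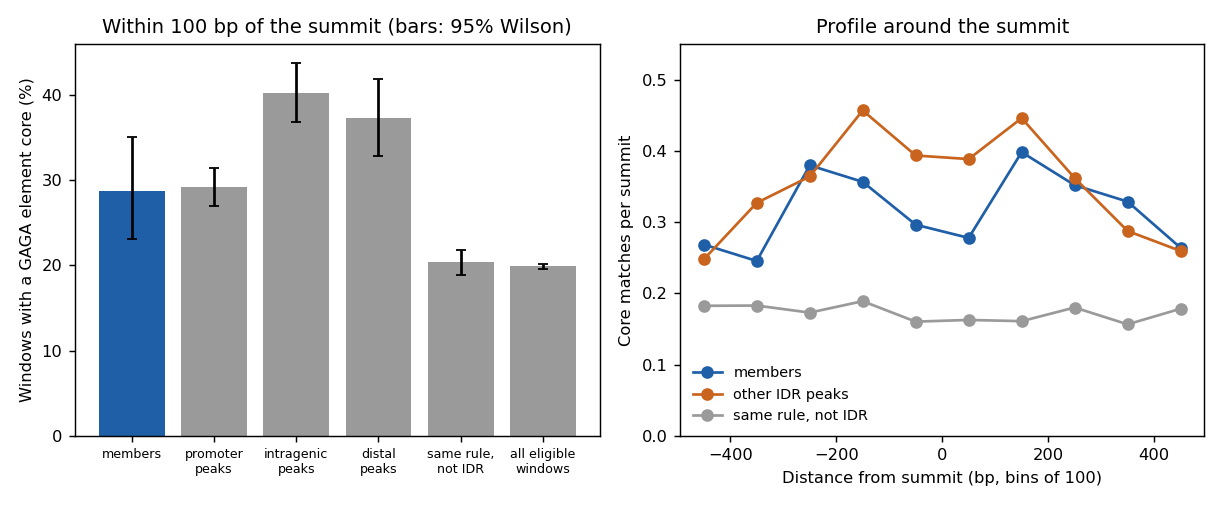
Share of windows with a GAGA core within 100 bp of the summit, with 95% Wilson intervals (left), and core matches per summit in bins of 100 bp (right). Members, at 28.7%, stand near promoter peaks and above the 19.9% of all eligible windows, and both IDR lines dip at the summit.

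The promoter motifs TATCGATA and GGTCACAC and the E-box were rarer in members than in promoter peaks, and near their share in eligible sequence. The other motifs did not all follow this. The DNA replication-related element, TATCGATA, was in none of 216 members (at most 1.75% by the Wilson interval), 5.55% of promoter peaks, 0.531% of intragenic peaks, 0.226% of distal peaks and 0.421% of eligible windows. The core motif of M1BP, GGTCACAC, was in 1 member (0.463%), 3.84% of promoter peaks, 0.398% of intragenic peaks, none of the distal peaks and 0.262% of eligible windows. The E-box CAGCTG was in 11 members (5.09%), 12.8% of promoter peaks and 7.58% of eligible windows. The Zelda site CAGGTAG was in 2 members (0.926%), 0.441% of promoter peaks and 0.934% of eligible windows. The Grainyhead core AACCGG was in 5 members (2.31%), 4.10% of promoter peaks and 3.92% of eligible windows. A CA repeat, CACACACA, was in 14 members (6.48%), 5.17% of promoter peaks and 4.62% of eligible windows. GCCAT, the core of the Polycomb recruiter Pleiohomeotic, was in 61 members (28.2%), below the 37.1% of eligible windows. The other IDR classes were also below it, with 24.6% of promoter peaks, 25.8% of intragenic peaks and 26.2% of distal peaks. The median GC content was 37.8% in members, 37.8% in other IDR peaks and 41.3% in eligible windows, and the part of base composition in these shares was not tested.

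The limits of the rule are distances alone. Just inside the inner limit were sites of CG15628 at 501 bp with a score of 92.3 and of CrebA at 502 bp with 82.7. Just outside it were sites of Mkp3 at 496 bp with 106 and of CG6163 at 495 bp with 231. At the outer limit, the site of CG33648 at 4914 bp, at rank 1905 of the IDR list, lay inside, and that of CG4004 at 5009 bp, at rank 163, lay outside.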

How the data were processed

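Binding was measured by ChIP-seq in 2 samples of 1 group, and the labels gave the group and the replicate numbers 3 and 4. The deposited text files say that the authors called relaxed peak lists of 30000 peaks on each replicate and on both pooled, and an optimal IDR list. The peak score is the authors' own, deposited in a column of the lists, and was used to rank and describe peaks within 1 list. The deposited −log10 q was 3.87 for all 2999 IDR peaks and ranked nothing. The summit came from the deposited offset. Neither the labels nor the files name the aligner, the peak caller or the IDR threshold. Read numbers are not in the peak lists, and the depth of each library is unknown.

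Gene models came from Ensembl release 115, with 13945 coding genes and transposable elements left out. Bases came from the RefSeq dm6 assembly. Of 17682 genes matched by symbol, 17680 had the same coordinates in both. Coordinates are dm6, counted from 1. A peak counted as found in a replicate at 1 bp of overlap, and its replicate score is that of the overlapping peak with the nearest summit. Motifs were exact and on both strands. Of 394 names in the gene lists, 15 matched no coding gene of that name.

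Named genes were those nearest to the 25 highest-scoring members found in both replicates, list genes nearest to a member, and the 6 genes with the most members, with genes flanking or overlapping a named summit. zfh2 was named for its printed sequence. Genes at the limits of the rule were named for their distance. Sequences were taken from up to 8 members with a core and up to 4 without, by score, leaving out 1 chromosome arm. The members, lists and motifs were chosen with earlier results of these data known. No test between groups was possible, and none was run over peaks. Analysis used Python 3.11.15, numpy 2.4.6, scipy 1.17.1, pandas 2.3.3 and matplotlib 3.10.9.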

Additional observations from a re-analysis of the deposited data

How the results depend on the processing

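Of 67 recomputed values, 52 stayed within the interval of the reported value or, for counts of members, within 1.5 times of it. The count of 157 members over 1000 bp away is among those kept, while their share of the IDR list, 5.24%, is not. With 2999 peaks of 1 replicate in place of the IDR list, there were 208 members without replicate 3 and 211 without replicate 4, and the share met in the left-out replicate was 73.6% in replicate 3 and 73.5% in replicate 4. Over these 2 settings the GAGAG share was 25.6 to 31.7%, the upstream share 81.2 to 82.9%, and the share with a promoter summit at the nearest gene 24.2 to 28.8%. In the upper 1499 IDR ranks the count was 90, all met in both replicates (100% each), and the median score was 152. The promoter share there was 16.7%. It counted only promoter summits within those same ranks, so it cannot be set beside the 24.5% of the full list. High rank in a list kept for agreement between the replicates partly sets the 100%. The upstream share was 74.5% for members over 1000 bp away, and 72.8% when genes and TSSs of every class counted. An overlap of 50% of both peaks left 71.3% met in replicate 3 and 75.9% in replicate 4. The GAGAG share was 11.1% within 50 bp and 60.6% within 250 bp. No paired analysis was possible because there is 1 group.

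The depth of the libraries is unknown, and 2 replicates from 1 transgenic line give no estimate of spread between lines. Peaks share the same 2 libraries and are not independent. Sites are assigned by the nearest TSS alone, and input chromatin was not analysed here.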

Other observations

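Words shared by member windows were counted without a preset motif, and those named here were chosen after seeing the data. Among the 2080 words of 6 letters, counted with their reverse complements, GAGAAA had the largest excess over eligible windows in percentage points. It was in 59 members (27.3%, 21.8 to 33.6%), 22.7% of other IDR peaks and 14.2% of eligible windows. By class it was in 18.6% of promoter peaks, 26.3% of intragenic peaks and 31.2% of distal peaks. The intragenic and distal shares lie inside the interval of the members. AGTGTA came next, in 42 members (19.4%, 14.7 to 25.2%), 11.4% of promoter peaks, 14.9% of intragenic peaks, 13.5% of distal peaks and 7.52% of eligible windows.

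Among words of 8 letters, the excess was largest for AAACAAAC, in 20 members (9.26%, 6.07 to 13.9%) and 3.18% of eligible windows. This word was in 4.22% of promoter peaks, and in 7.57% of intragenic and 6.77% of distal peaks, both inside the interval of the members. The words AAACAAAT, GAGAGAAA, AAAACAAA and ATTTAAAA followed, and TACACTGA came at place 6. It overlaps the reverse complement of AGTGTA and was picked because its ratio to eligible windows was the highest of the first 10 words. It was in 12 members (5.56%, 3.21 to 9.46%), 1.76% of promoter peaks, 3.72% of intragenic peaks, 3.84% of distal peaks and 0.628% of eligible windows. The shares of intragenic and distal peaks lie inside the interval of the members. Its 12 sites included those of slp2, with a score of 224, CG5550, with 208, and Gr89a, with 149. Whether a factor binds this word was not tested.

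GCCAT was in 39 of the 108 members with the higher scores (36.1%) and in 22 of the 108 with the lower (20.4%). The difference was seen among 10 motifs and was not tested.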
